A study of Mus musculus with 4 samples.

Results

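The glutathione and oxidative stress defence genes are a list of 47 genes selected by name, and all 47 were found among the 31829 gene names of the array. They comprise 21 glutathione transferases, 5 genes of glutathione synthesis and supply, 5 glutathione peroxidases, 8 genes of the thioredoxin and peroxiredoxin system, 4 superoxide dismutase and catalase genes, 2 target enzymes of NRF2, and the regulators NRF2 (Nfe2l2) and KEAP1 (Keap1). The 47 members had 67 probes. Of the members, 42 were well above background on all 4 arrays and 5 on some of them (Mgst1, Gstm6, Gstt3, Gpx3 and Gpx7). A probe is called dim below where its signal was not well above background.

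Glutathione is a small thiol that donates electrons to peroxidases, which reduce hydrogen and lipid peroxides, and that transferases attach to electrophilic compounds so that these can be exported. Thioredoxin and the peroxiredoxins form a parallel thiol system, while superoxide dismutases and catalase act on superoxide and hydrogen peroxide directly. The transcription factor NRF2, which KEAP1 holds at a low level in unstressed cells, binds antioxidant response elements near many of these genes. Fibroblasts in culture express most of the system.

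Mouse embryonic fibroblasts (MEFs) of strain C57BL/6J in logarithmic growth were compared to learn how loss of the cyclins CycG1 and CycG2 alters transcription. Each of 4 MEF preparations was hybridised to 1 single-color Agilent array: CycG2-/- (labelled G2KO), CycG2+/+ (WT of G2KO), CycG1-/-CycG2-/- (DKO) and CycG1+/+CycG2+/+ (WT of DKO). The deletions are present in the whole embryo, and the sources used here do not say whether embryos were pooled or at which passage RNA was taken. With 1 array per group there is no replicate check, no test was possible, and every difference below is one between 2 arrays.

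Total RNA was labelled with Cy3, and all 4 arrays lay on 1 slide scanned once. Levels are the intensity of a probe divided by the 75th percentile of its array, so they can be compared between arrays for a probe but not between probes. Between 65.0% and 72.2% of probes were well above background, no spot was saturated, and repeated spots of a probe had a median SD of 0.0752 to 0.122 on the log2 scale. Ccng1, which encodes CycG1, was dim in DKO and was at least 228-fold lower than in its WT, while Ccng2 lay between 0.0616 and 0.104 on all 4 arrays and did not separate the genotypes. Fibroblast markers summed to levels between 402 and 598 on the 4 arrays, with all 12 well above background except Pdgfra and Lum in WT of G2KO. Bright probes dominate such a sum, which can be compared between arrays but not between lists of markers. Within it 6 markers were at least 2-fold lower in DKO than in its WT, such as Postn (0.116 against 21.6), and 1 was higher. The 4 epithelial markers summed to at most 0.363 and the 4 liver markers to at most 0.0888: Epcam, Alb and Ttr were above background on no array, Krt5 and Krt14 on all, and Cdh1 was highest in DKO at 0.249. Because the array labelled G2KO resembled WT of DKO more than it resembled its own WT (SD of log2 ratios 0.53 against 0.86 over 24197 probes), signs in the G2KO comparison are those of the labels; they run opposite to the directions that the study lists for G2KO. The study describes dye-swapped experiments for G2KO and single-color ones for DKO, so its G2KO list may come from other hybridisations than these. Whether the labels G2KO and WT of G2KO are exchanged was not tested. Each statement on the array labelled WT of G2KO as a wild type therefore rests on its label.

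The sequences below are the 250 bases upstream of the first start site listed by RefSeq on assembly GRCm38.p6, 5′ to 3′ on the strand of the gene. Mgst1, Gstm2 and Gstm6 are shown as members with large differences in DKO, although Gstk1, which is not shown, differed more than Gstm2. Gclm is shown as a known target of NRF2, and Gstm5 as the neighbour at the end of the mu transferase cluster that did not differ in DKO. Capitals mark each match to the core of the antioxidant response element, TGACNNNGC, searched on both strands (GCNNNGTCA on the other).
Mgst1 (chr6:138140277-138140526, plus strand): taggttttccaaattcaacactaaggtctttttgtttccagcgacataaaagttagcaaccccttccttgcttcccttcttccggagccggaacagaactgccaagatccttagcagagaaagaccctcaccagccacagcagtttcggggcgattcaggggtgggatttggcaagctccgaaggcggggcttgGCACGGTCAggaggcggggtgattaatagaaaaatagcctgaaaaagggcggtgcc
Gclm (chr3:122245307-122245556, plus strand): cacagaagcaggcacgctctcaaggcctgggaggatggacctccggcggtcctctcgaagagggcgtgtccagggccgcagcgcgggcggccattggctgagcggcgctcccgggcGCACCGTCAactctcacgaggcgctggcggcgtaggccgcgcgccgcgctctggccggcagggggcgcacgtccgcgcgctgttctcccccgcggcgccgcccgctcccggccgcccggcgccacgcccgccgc
Gstm5 (chr3:107895604-107895853, plus strand): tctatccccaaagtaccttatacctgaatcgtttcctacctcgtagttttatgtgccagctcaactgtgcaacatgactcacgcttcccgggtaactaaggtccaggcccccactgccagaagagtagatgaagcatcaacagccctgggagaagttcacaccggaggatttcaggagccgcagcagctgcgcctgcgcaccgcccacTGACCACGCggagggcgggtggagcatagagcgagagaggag
Gstm2 (chr3:107986421-107986670, minus strand): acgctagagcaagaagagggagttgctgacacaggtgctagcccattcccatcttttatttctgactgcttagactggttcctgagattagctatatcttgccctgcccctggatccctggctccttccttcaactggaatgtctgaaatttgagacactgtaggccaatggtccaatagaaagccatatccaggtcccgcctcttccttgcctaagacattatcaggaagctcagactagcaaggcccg
Gstm6 (chr3:107953467-107953716, minus strand): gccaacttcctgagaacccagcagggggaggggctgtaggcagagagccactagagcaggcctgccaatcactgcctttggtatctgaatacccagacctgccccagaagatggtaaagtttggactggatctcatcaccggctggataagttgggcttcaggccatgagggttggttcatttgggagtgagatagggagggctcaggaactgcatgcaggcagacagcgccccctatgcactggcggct
Counted over every listed start site of a gene, the core was found upstream of 9 of the 40 members in the promoter table (22.5%). These were Mgst1, Gsta3, Gstm5, Gstm7, Gclm, Txnrd1, Prdx1, Sod1 and Nfe2l2. For Gstm7 the match lay upstream of a further start site and not of the first. By the same count the share among all 27025 genes of the table was 11.5%. Genes with several start sites had more chances of a match. Gsta4, Gstt2, Gclc, Gsr, Hmox1, Prdx6 and Sod3 were not in the table. Of the 9 members in the table that were at least 2-fold higher in DKO, Mgst1 alone had a match, at position -56 from the start, and the 3 members in the table that were lower in DKO had none. Within the 250 bases searched, Gstm2 and Gstm6 did not hold the core, whereas Gstm5, which did not differ, held it at position -42. Nqo1, a target enzyme of NRF2, had no match either. Sequence further upstream was not searched, so a missing match does not show that an element is absent. When aligned in pairs with gaps allowed, the first upstream windows of the 7 mu transferases had identical bases at no more than 62.8% of the window.

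The 42 members well above background throughout differed about as widely in DKO against its WT as between the 2 WT arrays. The same held for all probes. The SD of the log2 ratio over these 42 members was 1.16 for DKO against its WT (1.02 over all 24197 probes). It was 1.15 for the array labelled G2KO against its WT (0.86 over all probes), and 1.18 for WT of DKO against WT of G2KO (1.01). Between the array labelled G2KO and WT of DKO it was 0.59 (0.53). Mgst1, Gstm6, Gstt3, Gpx3 and Gpx7, dim on some arrays, are not in these SDs. The median log2 ratio of the members was 0.30 in DKO, against 0.01 for all genes. On the array labelled G2KO it was 0.16 against -0.17, and between WT arrays 0.30 against -0.07. With this scaling the median between the arrays labelled WT was thus as large as that in DKO. The order of these 2 medians depended on the scaling. With scaling to the median they were 0.12 between WT arrays and 0.32 in DKO, and with quantile normalization 0.45 and 0.29.

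**Figure D1:**
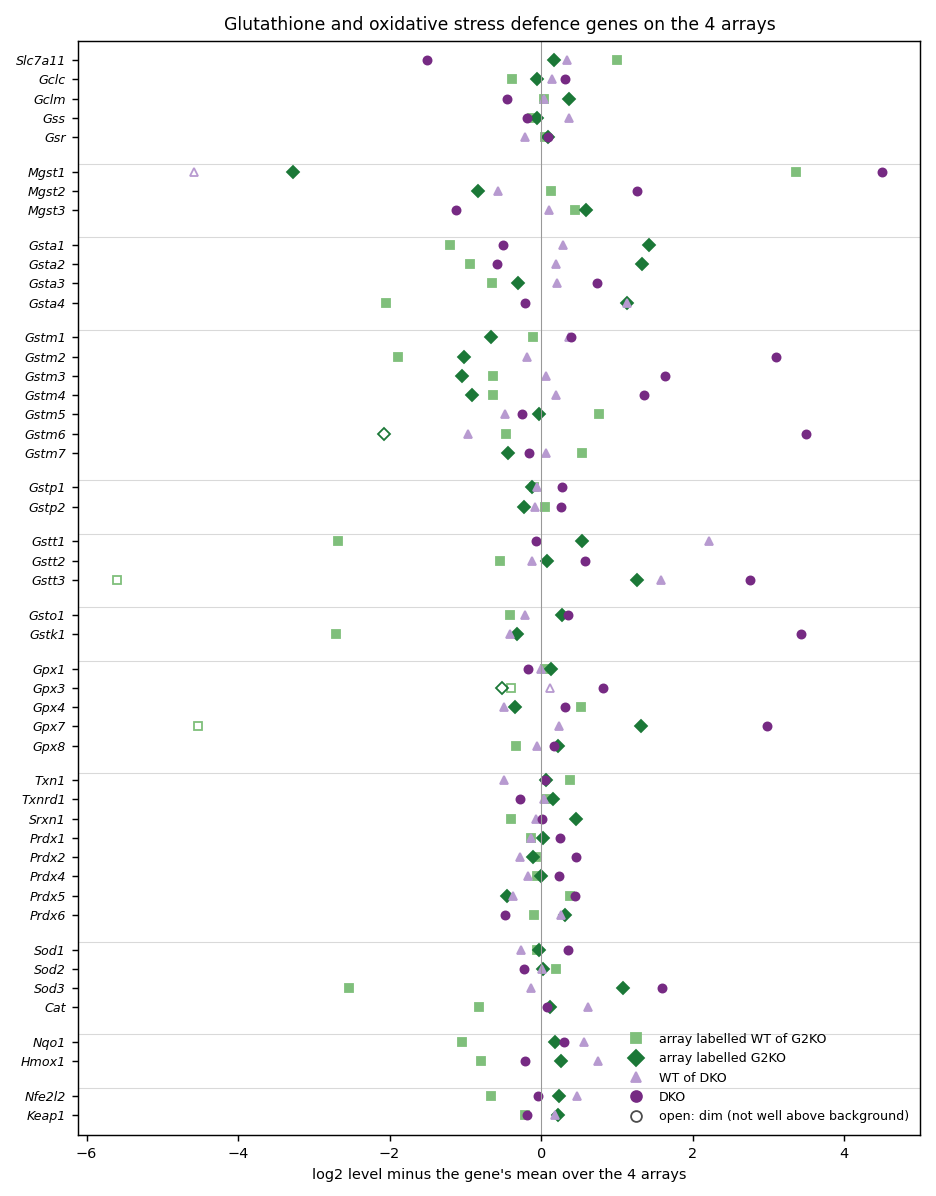
Log2 level of each of the 47 members on the 4 arrays, minus the mean of the gene over the arrays, with genes grouped by role from glutathione synthesis (top) to NRF2 and KEAP1 (bottom); open symbols mark arrays where the probe was dim and stand at the limit of detection if its own signal was lower. The transferases spread widely, with Mgst1 and Gstt3 the widest, whereas the 8 genes from Txn1 to Prdx6 stay within 2-fold.

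In DKO against its WT, 10 of 47 members were at least 2-fold higher (Mgst1, Mgst2, Gstm2, Gstm3, Gstm4, Gstm6, Gstt3, Gstk1, Gpx7 and Sod3), or 21.3%, where 10.3% of all 23547 genes compared were. Mgst3, Gsta4, Gstt1 and Slc7a11, or 8.51% of members, were at least 2-fold lower, where 9.36% of genes were. At 4-fold in either direction there were 6 members (12.8%) against 7.84% of genes. Because WT arrays differ widely, members were also counted when DKO lay at least 2-fold outside all 3 other arrays. All of the higher members except Sod3 did so, which is 9 members or 19.1% of members, where 6.3% of 24495 genes did. Mgst3 and Slc7a11 lay below the others in the same way (4.26% of members, against 3.4% of genes).

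More of the transferases than of the other members differed in DKO, although this split was made with the values known and carries no test. Of 21 transferases 8 were higher and 3 lower in DKO, and their median absolute log2 ratio was 1.16. Of the 26 other members 2 were higher and 1 lower, with a median absolute log2 ratio of 0.52. Only 4 of the 18 transferases well above background throughout kept all 4 arrays within 2-fold, compared with 17 of 24 other members. Among all genes 10.3% were at least 2-fold higher and 9.36% lower in DKO, with a median absolute log2 ratio of 0.41. All 4 arrays were within 2-fold for 62.9% of genes.

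In the same DKO preparation 11 of 12 mesothelial markers were at least 2-fold higher than in its WT, with a median log2 ratio of 6.40. Their summed level was 149.6 in DKO and between 0.73 and 1.63 on the other arrays, and all 12 were well above background in DKO against 4 to 6 elsewhere. Among 12 fibroblast markers 6 were lower and Dcn alone was higher in DKO (summed level 408 against 598 in its WT). The part of these markers in the transferase differences was not tested. In a bulk preparation a change in the share of a cell type and a change in RNA per cell cannot be told apart.

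Among the microsomal transferases, membrane proteins that conjugate or reduce lipid products, Mgst1 had the widest range of the 47 members. Its level (probe at chr6:138104846-138104905, mm9, plus strand) was 5.55 in DKO, 2.54 on the array labelled WT of G2KO, 0.0253 on the array labelled G2KO and 0.00637 (dim) in WT of DKO. DKO and the WT of G2KO array were thus high, while the other two were low. The difference was at least 543-fold between DKO and its WT (log2 ratio of at least 9.09) and at least 8.96 on the log2 scale for a further probe. WT of G2KO exceeded WT of DKO by at least 248-fold, so that the arrays labelled WT also fell on opposite sides. Both bounds depend on the background correction. With normexp the log2 ratio was 6.98 for DKO against its WT. For WT of DKO against WT of G2KO it was -5.86 in place of -7.96. Against WT of G2KO, DKO was only 2.19-fold higher.

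Mgst2, which also takes part in leukotriene C4 synthesis, stood at 0.569 in DKO, 0.16 in its WT, 0.133 on the array labelled G2KO and 0.261 on its WT. DKO was the highest of the 4 arrays, 3.55-fold above its WT and 2.18-fold above WT of G2KO. Mgst3 went the other way, with 1.02 in DKO against 2.38, 3.34 and 3.02 on WT of DKO, the array labelled G2KO and its WT. DKO was thus the lowest array for Mgst3, by 2.34-fold against its WT, and a further probe gave a log2 ratio of -1.28 against -1.23.

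The mu class transferases lie in a cluster on chromosome 3 and conjugate a wide range of electrophiles. By the positions of their probes on mm9 they run in the order Gstm5, Gstm7, Gstm6, Gstm3, Gstm2, Gstm1 and Gstm4. In DKO, 4 of the 7 were at least 2-fold higher than in its WT, none was lower, and the median log2 ratio was 1.16, where 10.3% of all genes were higher and the median was 0.01. The levels of Gstm2 (chr3:107784622-107784681, minus strand) were 15.3 in DKO, 1.57 in its WT, 0.878 on the array labelled G2KO and 0.479 on its WT. DKO stood apart from all 3 other arrays, 9.74-fold above its WT, and the 3 probes of Gstm2 gave log2 ratios from 3.28 to 3.55. Gstm6 (chr3:107741880-107741939, minus strand) was at 0.396 in DKO, 0.0179 in its WT, 0.0254 on the array labelled WT of G2KO and 0.00831 (dim) on the array labelled G2KO. DKO again stood alone, at 22.1-fold above its WT, with log2 ratios or lower limits from 3.54 to 5.85 over 3 probes. With normexp background correction the log2 ratio of the probe used was 2.92 in place of 4.46.

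Gstm3, which lies between them, stood at 1.69 in DKO, 0.568 in its WT, 0.263 on the array labelled G2KO and 0.35 on its WT. DKO was 2.97-fold above its WT. Gstm4 was at 0.649 in DKO against 0.29, 0.135 and 0.163 on WT of DKO, the array labelled G2KO and its WT. Its 2 probes differed in size, with log2 ratios of 1.16 and at least 3.99, and both were highest in DKO. The other 3 members of the cluster did not separate DKO. Gstm1 was at 3.41 in DKO and 3.35 in its WT, although the file places this probe on chromosome 5, and its further probe on chromosome 3 gave a log2 ratio of -0.04. Gstm5, at the end of the cluster, was at 3.11 in DKO, 2.67 in its WT, 3.64 on the array labelled G2KO and 6.29 on the array labelled WT of G2KO. Gstm7 was at 0.0269 in DKO and 0.0314 in its WT.

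Because paralogous genes resemble each other, the probe sequences were compared over 2186 pairs of member probes. The closest pair was Gsta1 with Gsta2, with 46 of 60 bases identical in place. Among mu class probes the closest was Gstm6 with Gstm7, at 41. Binding of a transcript to the probe of a paralogue was not measured.

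**Figure D2:**
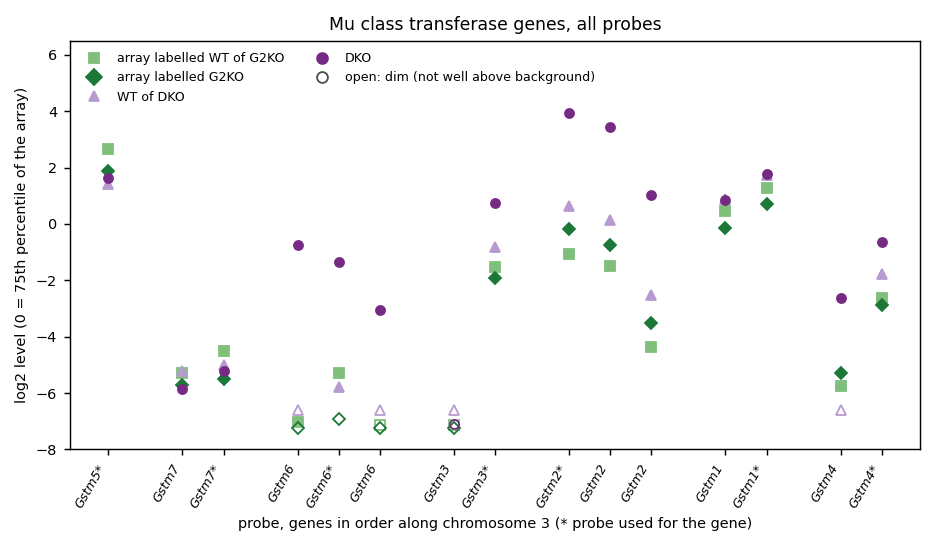
Log2 level of every probe of the 7 mu class transferase genes on the 4 arrays, with genes in their order along chromosome 3 and an asterisk on the probe used for the gene (for Gstm1 the file places that probe on chromosome 5). DKO (filled circles) is the highest array for the probes of Gstm6, Gstm2 and Gstm4 and the used probe of Gstm3, and does not stand apart for Gstm5, Gstm7 and Gstm1.

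The alpha class transferases, which conjugate products of lipid peroxidation such as 4-hydroxynonenal, did not follow the mu class. Gsta4 (chr9:78046172-78047344, read by 10 spots an array) was at 0.231 in DKO, 0.589 in its WT, 0.586 on the array labelled G2KO and 0.0652 on its WT. DKO thus lay 2.55-fold below its own WT but 3.54-fold above the other WT array, which was the lowest of the 4. Gsta1 was at 0.0551 in DKO, 0.0959 in its WT, 0.211 on the array labelled G2KO and 0.034 on its WT, and Gsta2 had the same order of arrays with 0.0247, 0.0423, 0.0925 and 0.0192. For both genes the array labelled G2KO was the highest and its WT the lowest, 6.21-fold apart for Gsta1 and 4.81-fold for Gsta2. Gsta3 by the probe used was low on all arrays, between 0.016 and 0.0421, with a log2 ratio of 0.53 in DKO. Its further probe gave 0.72 in DKO and was dim in WT of G2KO. By that probe WT of G2KO was at least 2.27-fold below the array labelled G2KO and at least 4.30-fold below WT of DKO.

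Of the theta class, which acts on small halogenated compounds, Gstt3 and Gstt1 are neighbours on chromosome 10. Gstt3 (chr10:75236966-75237025, minus strand) was at 2.35 in DKO, 1.04 in its WT, 0.831 on the array labelled G2KO and 0.0056 (dim) on its WT. WT of G2KO was the lowest array, at least 116-fold below the array labelled G2KO and at least 146-fold below WT of DKO, whereas DKO exceeded its WT by only 2.26-fold. With normexp background correction those 2 lower limits fell, on the log2 scale, from 6.86 to 4.43 and from 7.19 to 4.70. Gstt1 (chr10:75246560-75246619, minus strand) was at 0.28 in DKO, 1.36 in its WT, 0.424 on the array labelled G2KO and 0.0459 on its WT. Here WT of DKO was the highest array and DKO lay 4.86-fold below it, again with WT of G2KO the lowest. Gstt2 was between 0.0116 and 0.0253 on all arrays.

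Gstk1, the kappa transferase of mitochondria and peroxisomes, separated DKO and WT of G2KO in opposite directions. Its level (chr6:42200381-42200440, plus strand) was 2.2 in DKO, 0.153 in its WT, 0.163 on the array labelled G2KO and 0.0313 on its WT. DKO was 14.4-fold above its WT, and the array labelled WT of G2KO was 4.89-fold below WT of DKO. Gsto1, the omega transferase with reductase activity, and the pi class genes Gstp1 and Gstp2 were within 2-fold on all 4 arrays. Gstp1 was at 9.26 in DKO and between 7.02 and 7.35 elsewhere.

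Glutathione synthesis differed little between the arrays. Gclc, the catalytic subunit of the rate-limiting ligase, was at 3.83 in DKO, 3.38 in its WT, 2.95 on the array labelled G2KO and 2.35 on its WT. Its modifier subunit Gclm was at 0.368 in DKO against 0.518, 0.649 and 0.517, which made DKO the lowest by 1.41-fold. Glutathione synthetase (Gss) and glutathione reductase (Gsr), which regenerates the reduced thiol, had log2 ratios of -0.54 and 0.30 in DKO, and all 4 arrays were within 2-fold for both. Slc7a11, the cystine importer that supplies the precursor, was the exception. It was at 0.0118 in DKO, 0.0426 in its WT, 0.0379 on the array labelled G2KO and 0.0671 on its WT. DKO was the lowest array, 3.61-fold below its WT, but its signal was low and with normexp background correction the log2 ratio was -0.61 in place of -1.85.

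Among the peroxidases, Gpx7, which resides in the endoplasmic reticulum, showed large differences and the abundant forms did not. Gpx7 (chr4:108072995-108073054, minus strand) was at 1.3 in DKO, 0.194 in its WT, 0.409 on the array labelled G2KO and 0.00239 (dim) on its WT. It was 6.69-fold higher in DKO than in its WT, and WT of G2KO was at least 27.2-fold below the other WT array. With normexp background correction that lower limit fell from 4.76 to 2.62 on the log2 scale. Gpx1, the main cytosolic form, was at 46.9 in DKO and between 52.6 and 57.6 elsewhere, and Gpx8 stayed within 2-fold as well. Gpx4, which reduces lipid hydroperoxides in membranes, was at 43.8 in DKO and 50.6 on the array labelled WT of G2KO, but at 25.1 in WT of DKO and 27.9 on the array labelled G2KO. The arrays fell into the same pairs as for Mgst1, at a difference of 1.75-fold between DKO and its WT. The secreted Gpx3 was above background in DKO alone, at a level of 0.0166.

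All 8 genes of the thioredoxin and peroxiredoxin system were well above background and stayed within 2-fold over the 4 arrays. The widest was Prdx5, a peroxiredoxin of mitochondria and peroxisomes, at 19.3 in DKO, 10.9 in its WT, 10.4 on the array labelled G2KO and 18.4 on its WT. Thioredoxin (Txn1) was at 25.9 in DKO and 17.9 in its WT, while thioredoxin reductase (Txnrd1) was at 13.3 and 16.5. Log2 ratios in DKO ran from -0.74 for Prdx6 to 0.82 for Prdx5, and Srxn1, which repairs overoxidised peroxiredoxins, had 0.09. Of the 4 probes of Prdx6, 3 gave log2 ratios from -0.77 to -0.71, while the last, of low signal, gave 1.30.

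Over all members, 21 of the 42 measured throughout (50%) had all 4 arrays within 2-fold of each other, where 62.9% of 19466 genes did. Sod1 and Sod2, the cytosolic and mitochondrial superoxide dismutases, were among them, with log2 ratios of 0.62 and -0.23 in DKO. Sod3, the extracellular form, was at 0.531 in DKO, 0.16 in its WT, 0.371 on the array labelled G2KO and 0.0302 on its WT. Its low array was WT of G2KO, 12.3-fold below the array labelled G2KO, and DKO was 3.31-fold above its WT. Catalase (Cat) was at 2.72 in DKO, 3.93 in its WT, 2.79 on the array labelled G2KO and 1.46 on its WT.

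Nfe2l2, Keap1, Nqo1 and Hmox1 were each lower in DKO than in its WT, by less than 2-fold. Nfe2l2 was at 3.84 in DKO, 5.46 in its WT, 4.64 on the array labelled G2KO and 2.5 on its WT, and Keap1 at 3.82, 4.91, 5.03 and 3.75. The quinone reductase Nqo1 was at 1.18 in DKO, 1.41 in its WT, 1.09 on the array labelled G2KO and 0.464 on its WT. Heme oxygenase (Hmox1), which breaks down heme, was at 2.48 in DKO, 4.84 in its WT, 3.44 on the array labelled G2KO and 1.66 on its WT. For Nfe2l2, Nqo1, Hmox1 and Cat (by the probe used) alike, WT of DKO was the highest array and WT of G2KO the lowest, with DKO between them. The fold between the 2 WT arrays was 2.18 for Nfe2l2, 3.05 for Nqo1, 2.92 for Hmox1 and 2.69 for Cat, each larger than the fold between DKO and its WT. A further probe of Cat was between 0.273 and 0.302 on all 4 arrays and did not show this order. The further probe of Hmox1 showed it, with 2.13-fold between the WT arrays.

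**Figure D3:**
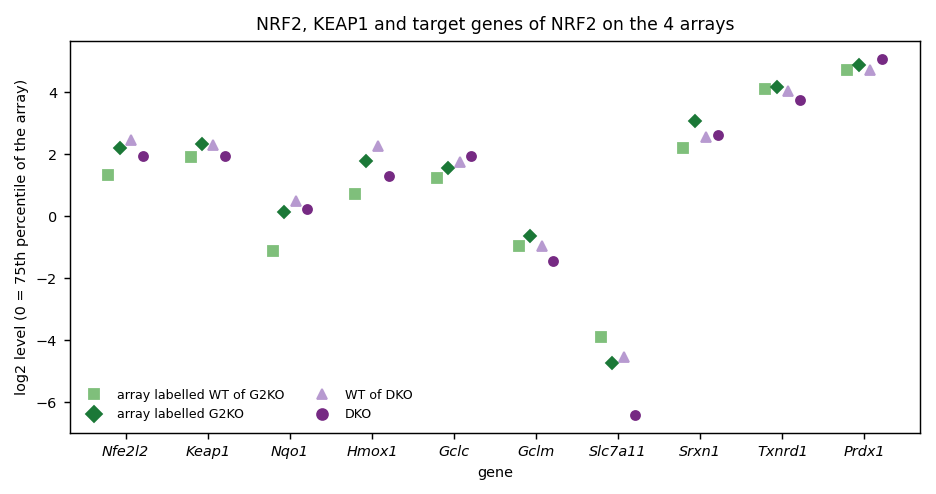
Log2 level on the 4 arrays of NRF2 (Nfe2l2), its inhibitor Keap1 and 8 members known as target genes of NRF2. For Nfe2l2, Nqo1 and Hmox1 WT of DKO is the highest and WT of G2KO the lowest array, whereas DKO is the lowest for Gclm and Slc7a11.

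The array labelled G2KO was compared with its WT to ask for effects of CycG2 loss alone. Of 46 members, 10 were at least 2-fold higher (21.7%, against 8.72% of 22813 genes), namely Gsta1, Gsta2, Gsta4, Gstt1, Gstt3, Gstk1, Gpx7, Nqo1, Hmox1 and Sod3. Hmox1 reached 2-fold by the probe used, with a log2 ratio of 1.05, but its further probe gave 0.55. Mgst1 and Gstm6 were at least 2-fold lower (4.35%, against 8.38% of genes). With normexp background correction the split was 9 higher and 1 lower, and Gstm6 was no longer among the lower. With the median over all probes of a gene it was also 9 higher and 1 lower. With scaling to the median it was 10 higher and 4 lower, and without scaling 17 higher and 2 lower. At 4-fold in either direction there were 9 members (19.6%), where 5.72% of genes were.

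At 2-fold, the arrays labelled WT differed from each other at 16 members, compared with 12 for the array labelled G2KO against its WT. In WT of DKO 13 of 46 members were at least 2-fold higher than in WT of G2KO (28.3%, against 11.4% of 22544 genes), and Mgst1, Gstm5 and Gpx4 were lower (6.52%, against 9.75%). Without scaling the split was 15 higher and 1 lower. At 4-fold in either direction there were 7 members (15.2%, against 7.24% of genes). The 13 comprise the 10 members just named as higher on the array labelled G2KO, together with Gstm2, Cat and Nfe2l2. Both comparisons share the array labelled WT of G2KO, so these counts are not independent.

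Read array by array, WT of G2KO lay at least 2-fold below all 3 others for 7 members (14.9%, against 3.43% of genes): Gsta4, Gstt1, Gstt3, Gstk1, Gpx7, Nqo1 and Sod3. It lay above all others for 0 members (3.07% of genes). The array labelled G2KO stood outside the others for Gsta1, Gsta2 and Gstm6 (6.38% of members, against 1.41% of genes), but for 0 members with normexp background correction. WT of DKO did so for Mgst1 and Gstt1 (4.26%, against 2.39%). WT of G2KO also differed in markers of cell type. Of the fibroblast markers 7 of 12 were at least 2-fold higher in WT of DKO and 0 lower, with a median log2 ratio of 2.52. The 4 neural progenitor markers summed to 30.4 in WT of G2KO, against 1.27 to 2.09 on the others. Nes, at 27.9, and Sox2, at 2.37, made up this sum, whereas Pax6 was dim there and Sox1 was at 0.105, the lowest of the 4 arrays. The part of these markers in the 7 low members was not tested.

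**Figure D4:**
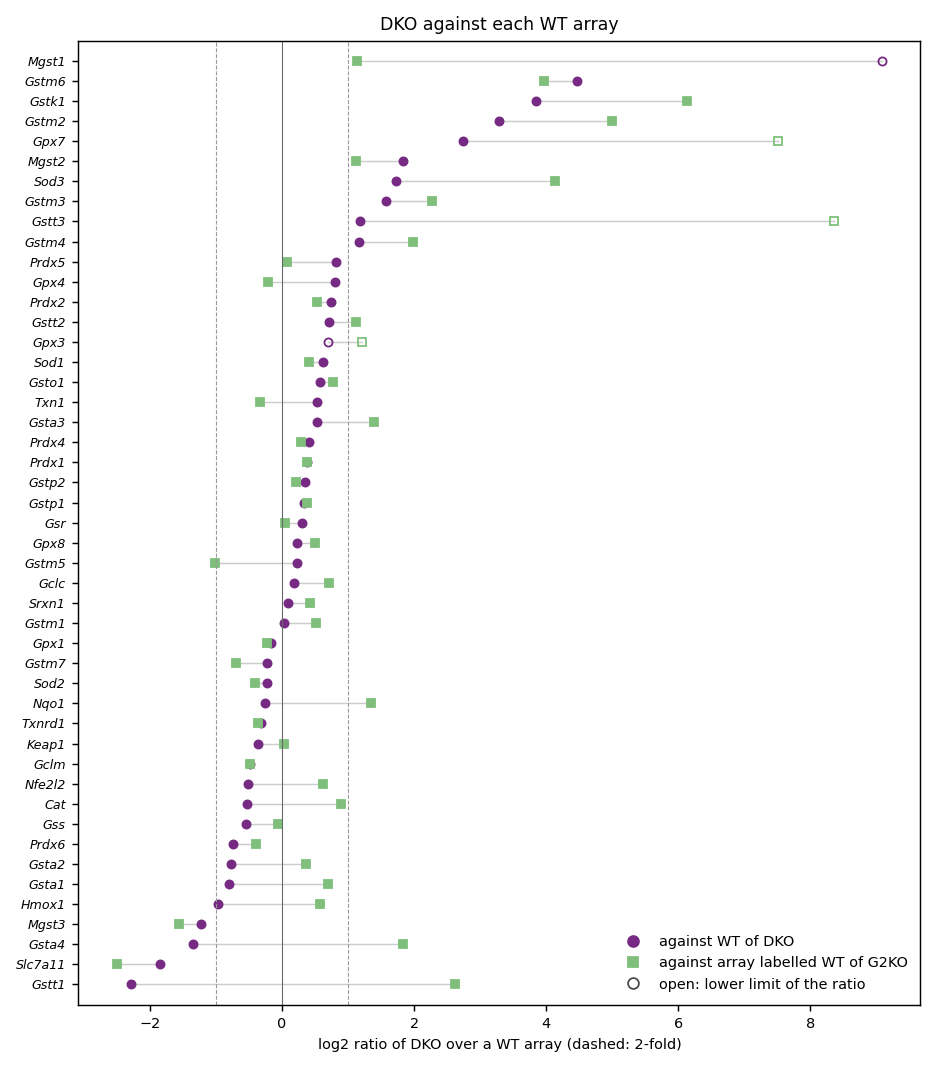
Log2 ratio of DKO over its own WT (circles) and over the array labelled WT of G2KO (squares) for the 47 members, ordered by the first, with open symbols for lower limits and dashed lines at 2-fold. The 10 members at the top exceed 2-fold against both WT arrays, whereas Gstt1 and Gsta4 are at least 2-fold lower against WT of DKO but higher against WT of G2KO.

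The other genes of the pathway comprised 93 listed genes, of which 89 were on the array. In DKO against its WT, 21 of the 83 compared were at least 2-fold higher and 6 lower, with a median log2 ratio of 0.24. Over all genes 10.3% were higher and 9.36% lower, with a median of 0.01, and the counts by group that follow are read beside these shares. All 9 genes that supply NADPH, the electron donor of both thiol systems, were within 2-fold in this and both other comparisons. Of 19 further NRF2 target genes 7 were higher and 1 lower in DKO. Ephx1, the microsomal epoxide hydrolase, was at 42.9 in DKO, 2.67 in its WT, 1.95 on the array labelled G2KO and 30.5 on its WT. Ephx1 thus split the arrays into the same pairs as Mgst1, 16.1-fold apart in the DKO comparison. Of the metallothioneins and paraoxonases 3 of 5 compared were higher in DKO, led by Pon3, a lactonase, at 5.28 in DKO and between 0.012 and 0.023 on the other arrays.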

How the data were processed

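The authors extracted each spot's intensity from 4 Cy3 arrays with Agilent Feature Extraction (10.7.3.1 per the file headers, 10.5.1.1 per the submitters' processing notes), which corrects background. The deposited value table held the same intensity, with a largest log2 difference of 0. Control spots and 107 to 140 spots per array marked as outliers were left out. From the deposited intensity, log2 values were computed minus the array's 75th percentile, and spots of a probe averaged. A gene was read by its probe with the highest mean log2 value. Where a probe was not well above background on 1 array, its level there was raised, if lower, to the smallest well-above-background signal of that array, and the ratio given as a limit. Probes dim on both arrays had no ratio. Probe positions are the files', on mm9. Members and lists were chosen with earlier results of these data known. Every member is named, and other pathway genes when 4-fold different between DKO and its WT or 4-fold outside the other 3 arrays. Ratios were tested on simulated data. Alternatives were normexp correction (limma 3.58.1, R 4.3.3, offset 50), quantile, median and no scaling, other filters, probes, thresholds and WT arrays. Python 3.11.15, numpy 2.4.6 and pandas 2.3.3 were used.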

Additional observations from a re-analysis of the deposited data

Results flagged for a closer look

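Mgst1, Gsta4, Gstm6 and Gstt1 differed at least 2-fold in opposite directions in DKO and on the array labelled G2KO, each against its own WT. The difference between the comparisons was not tested, since each has 1 array a side. Log2 ratios for Mgst1 were at least 9.09 in DKO and -6.65 on the array labelled G2KO. Gstm6 had the same signs, at 4.46 and at most -1.61. On the array labelled G2KO a further probe of Gstm6 gave only at most -0.20, and another was dim on both arrays. With normexp background correction Mgst1 alone remained at least 2-fold lower on that array. For Gsta4 the signs were reversed, with -1.35 in DKO and 3.17 on the array labelled G2KO, and likewise for Gstt1, with -2.28 and 3.21. These signs are those of the labels, which are in doubt for the G2KO comparison. With its 2 arrays exchanged every sign of that comparison turns, and all 4 genes would differ in the same direction as in DKO. This follows from how the 4 were picked and says nothing on the labels. Gstt3, Gstk1, Gpx7 and Sod3, at least 2-fold higher in both comparisons as labelled, would then differ in opposite directions.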

How the results depend on the processing

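No paired analysis was possible because each group has 1 array. Of 965 alternative values for single members, 951 moved by at most 1.01 on the log2 scale, the SD between the WT arrays over 24197 probes. A value could thus move by 2-fold, or cross the 2-fold line, and still be among the 951. Another 14 moved further (10 of them with normexp correction) and 0 changed sign from a 2-fold difference. With normexp the lower limit for Mgst1 in DKO was 6.98 in place of 9.09, Gstm6 had 2.92, and Gsta2 (0.94 on the array labelled G2KO) and Slc7a11 (-0.61 in DKO) no longer reached 2-fold. Gstm6 also no longer reached 2-fold on the array labelled G2KO, where Mgst1 alone was lower by that much. For counts, lists and medians 69 of 85 alternatives stayed close. The median of the members in DKO was 0.51 against the WT of the other comparison. On the array labelled G2KO it was 0.65 without scaling, which moved the median of all genes from -0.17 to 0.32, and 0.35 with quantile normalization. Between WT arrays it was 0.55, 0.45 and 0.12 with no, quantile and median scaling. At 4-fold, 6 members differed in DKO and 7 between WT arrays, and without scaling 19 did on the array labelled G2KO. Outside all other arrays lay 3 members at 4-fold and 7 with the strict filter for DKO. For WT of DKO there were 1 with normexp or the strict filter and 0 at 4-fold, and for the array labelled G2KO 0 with normexp or at 4-fold. The causes were not tested. Each group is 1 preparation on 1 array, so genotype and preparation cannot be told apart. Where Mgst1, Gstm6, Gstt3, Gpx3 or Gpx7 was dim, its fold is a bound that depends on the background correction.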

Other observations

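Beyond the 47 members, several genes that handle glutathione or its products differed widely. Ggt7, a member of the gamma-glutamyl transferase family, was at 0.892 in DKO and between 0.0243 and 0.0339 on the other arrays, 36.8-fold above its WT. Oplah, which returns 5-oxoproline to glutamate, was at 1.42 in DKO and between 0.0452 and 0.0831 elsewhere. DKO stood above all other arrays for both. Slc1a5, a glutamine transporter, was at 0.271 on the array labelled WT of G2KO and between 2.23 and 6.43 on the others. Cbr3, a carbonyl reductase, had the same low array, at 0.567 against 3.90 to 6.81. Gdap1 was dim except in WT of G2KO, at 0.0435.

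Oxidant-producing enzymes were at least 2-fold higher in DKO for 3 of 11 genes compared and lower for 1, where 10.3% and 9.36% of all genes were. Xdh, xanthine dehydrogenase, was at 0.86 in DKO, 0.213 in its WT, 0.0815 on the array labelled G2KO and 0.0481 on its WT. Duox2 was at 0.0601 in DKO and at most 0.0126 elsewhere, and Maob at 0.0576 against at most 0.0146. All 3 were highest in DKO. Nfe2l3, a relative of NRF2, was above background in DKO alone, at 0.176. Among NRF2 targets, the glucuronosyltransferase Ugt1a6a was at 2.21 in DKO, 0.505 in its WT, 0.112 on the array labelled G2KO and 0.19 on its WT. Akr1b8, an aldo-keto reductase, was at 14.9 in DKO, 3.65 in its WT, 7.53 on the array labelled G2KO and 13.97 on its WT.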
